A study of Salmo salar with 54 samples.

Results

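Primary hepatocytes of Atlantic salmon (Salmo salar) exposed to 250 µM arsenosugar for 48 h were compared with unexposed hepatocytes of the same fish. The comparison held 12 of the 54 libraries of the series, chosen by their sample titles: 6 at 250 µM and 6 arsenosugar controls, with 1 library per fish and group. Cells came from 6 male fish, were isolated by collagenase perfusion, and were cultured on laminin-coated scaffolds before exposure. The compound was arsenosugar glycerol, diluted from a 1 mM stock in culture medium; the sources used here do not say whether control wells received a matching volume of the stock's solvent. Cells of the same fish at 5, 10 and 50 µM arsenosugar are used below for levels, and those at 50 µM as another reference. Neither group was genetically altered, and every group received the same medium with fetal bovine serum and antibiotics, apart from the stock added.

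Arsenosugars are organic arsenic compounds in which arsenic is attached to a ribose, and they are the main arsenic form of many seaweeds. Hepatocytes make most plasma proteins, synthesise cholesterol and glucose, oxidise fatty acids, and methylate and conjugate arsenic for export. Trivalent arsenic binds thiols, and cells answer with glutathione synthesis under the transcription factor NRF2, with metallothioneins and with heat shock proteins.

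The libraries at 250 µM were shallower than the others. Total reads ran from 10.5 to 14.7 M in the controls and from 0.898 to 5.38 M at 250 µM, where fish 2 was the shallowest and fish 4 the next at 2.83 M. Between 0 and 12 genes had no reads in a control library, against 207 to 921 at 250 µM. The 50 most abundant genes took 36.0% ± 1.39 of the reads in the controls (SD, n = 6), 36.0% ± 0.755 at 50 µM and 25.0% ± 3.75 at 250 µM. The 6 libraries at 250 µM also carry a series number of their own in the deposited header. The labels' protocols give an RNA integrity number of 9.7 ± 0.12 for the other 48 samples and describe the RNA from 250 µM separately, with no value in the text used here. Concentration, any difference in the volume of stock added, library series, depth and RNA integrity therefore cannot be told apart in any result below.

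**Figure D1:**
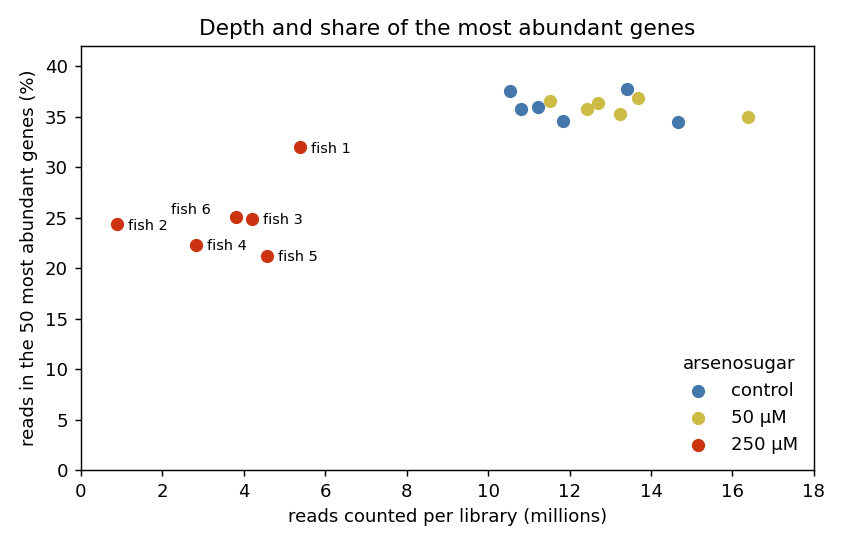
Reads counted per library (x axis, M) against the share of reads in its 50 most abundant genes (y axis, %), with 1 point per library for the control, 50 µM and 250 µM groups. The 6 libraries at 250 µM lie at or below 5.38 M reads, with fish 2 at 0.898 M, and all have a smaller share in the most abundant genes than any library of the other 2 groups.

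At 250 µM a large part of the measured transcriptome differed from the control. Of 18756 genes tested, 5000 were higher (26.7%) and 6846 lower (36.5%) by limma with fish as a term, at a Benjamini-Hochberg adjusted p below 0.05. At least 2-fold differences were called for 3154 genes (16.8%) in the higher direction and 4270 (22.8%) in the lower. The values of the groups did not overlap for 3099 genes (16.5%) that were higher and 4288 (22.9%) that were lower at 250 µM. Called genes that differed the same way in 6 of 6 fish numbered 4186 higher (22.3%) and 5706 lower (30.4%). Without fish 2 the counts of called genes were 4949 and 6422. In a principal component analysis the first component (61.8% of the variance) separated the groups, and the next (12%) set the 250 µM library of fish 2 apart from the other 11. The difference of each fish from its own control correlated between fish across genes, with r from 0.633 to 0.823 between any pair of fish; genes are not independent replicates.

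The split between directions depended on the scaling. With the authors' size factors the median gene differed by -0.20 (log2), and 42.2% of the calls were in the higher direction. With library totals the median was 0.10, and 56.8% of the calls, 6452 against 4900, were in the higher direction. Log2 differences below are on the authors' scale, as log2(normalised reads + 1), and are about 0.30 higher with library totals. Each list below is to be read against the 26.7% of all genes that were called higher, the 36.5% called lower and the median of -0.20. None of the 125 named genes that were called, a fixed set among them, reversed under any alternative that tested it. Apart from the fixed set, they were chosen as called in these same libraries, so this is a description. Salmon carry many duplicated genes, so each symbol stands for 1 copy, and reads shared between copies may have been split.

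**Figure D2:**
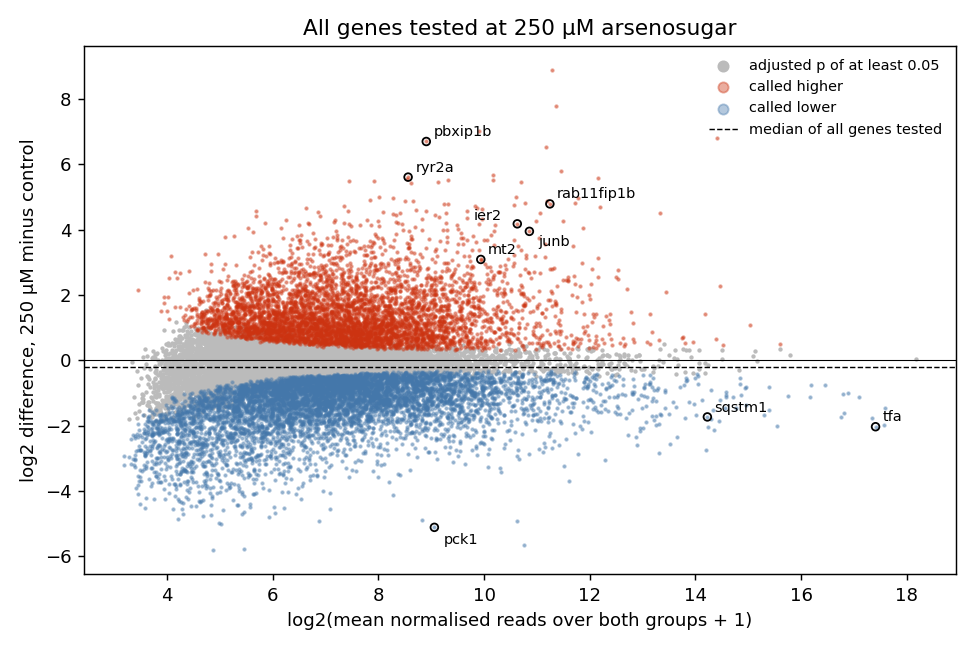
Log2 difference between 250 µM and control (y axis) against the log2 mean level over both groups (x axis, normalised reads + 1) for the 18756 genes tested, with genes called higher in red, called lower in blue and the others in grey. The dashed line is the median of all genes at -0.20; the most abundant genes at the right, such as tfa, lie mostly below it.

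The 2 largest rises among genes with a symbol were in genes with few reads in the controls. A check against gene length is not reported here, because the files name no genome build. pbxip1b (GeneID 106575541), a copy of a gene whose mammalian product binds PBX homeobox proteins, had 4.39 to 9.60 normalised reads in the controls (median 7.87) and 343 to 1582 at 250 µM (median 877). ryr2a, a copy of the ryanodine receptor that releases calcium from intracellular stores in heart muscle, had 5.49 to 22.7 in the controls (median 12.8) and 303 to 1524 at 250 µM (median 660.5). Every library at 250 µM was above every control in both genes. All controls of pbxip1b lay under the minimum value of 10, so it was tested only because it was high at 250 µM, and its log2 difference of 6.70 ± 0.23 (SE) is a description. That of ryr2a was 5.61 ± 0.20 (adjusted p = 1.76e-11). Its lowest control also lay under 10, so it passed the filter only with its libraries at 250 µM, and this value is partly a description. rab11fip1b, whose mammalian product is a Rab11 effector of recycling endosomes, was already expressed in the controls, at 126.5 to 205 (median 164), and reached 2404 to 6524 (median 4592) at 250 µM. It rose by 4.79 ± 0.20 (adjusted p = 1.18e-10).

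Among the other large rises were arid4b, chd3 and mdc1. arid4b, a member of histone deacetylase complexes in mammals, went from a mean of 42.4 ± 4.27 to 1032 ± 501 (SD, n = 6), and chd3, a chromatin remodeller, from 33.1 ± 6.45 to 664 ± 274.5. mdc1, a mediator of the DNA damage checkpoint that binds marked chromatin at breaks, went from 193 ± 27.4 to 3848 ± 1186. These 3 genes rose by 4.45 ± 0.21, 4.19 ± 0.24 and 4.26 ± 0.17 on the log2 scale. All 6 fish were higher at 250 µM in each of them, which the rule for the largest changes required. The adhesion gene kirrel3a stood apart. Its value at 250 µM was 10252 in fish 2 and had a median of 131 over the group, against 1.99 to 26.95 in the controls. Its log2 difference was 4.72 ± 0.86 with all fish and 3.32 without fish 2. The other 5 of the 12 largest rises, ttyh1, arap2, cdkal, phactr2 and si:ch211-150o23.3, lay between 4.21 and 4.66; ttyh1 too was under 10 in every control.

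The largest falls included metabolic enzymes of the liver. pck1, phosphoenolpyruvate carboxykinase of gluconeogenesis, had 628 to 1392 normalised reads in the controls (median 1057) and 16.9 to 65.9 at 250 µM (median 22.1). No library at 250 µM reached a control value, and the log2 difference was -5.11 ± 0.28 (adjusted p = 1.4e-09). nat8l2 fell by 4.93 ± 0.34, from a mean of 227 ± 59.9 to 7.58 ± 4.90. zmpste24, the protease that processes prelamin A, was at -4.54 ± 0.50, and lipea, hormone-sensitive lipase, at -4.08 ± 0.62, both called lower.

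Many of these falls rested on few reads. pck1 kept 63 reads over the 6 libraries at 250 µM, zmpste24 32 and lipea 27. 8 of the 12 largest falls, zmpste24, rn133, lipea, pigo (an enzyme of membrane anchor synthesis), tmem161b, pxmp4, phykpl and mmp28, had 1 library at 250 µM with no reads. Such a library can enlarge a fall, because the added 1 is less than the 1.69 to 9.41 normalised reads that 1 read was worth at 250 µM. How far it did so in each gene was not tested. Without fish 2, pigo was at -3.37 in place of -4.02, phykpl at -3.12 in place of -3.84 and lipea at -4.78 in place of -4.08. Without fish 6, zmpste24 was at -3.93 and mmp28 at -2.90 in place of -3.66, and without fish 1 lipea was at -3.40. Of the 18756 tested genes, 1270 had no reads in at least 1 library at 250 µM. Of the 6846 genes called lower, 867 had such a library.

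**Figure D3:**
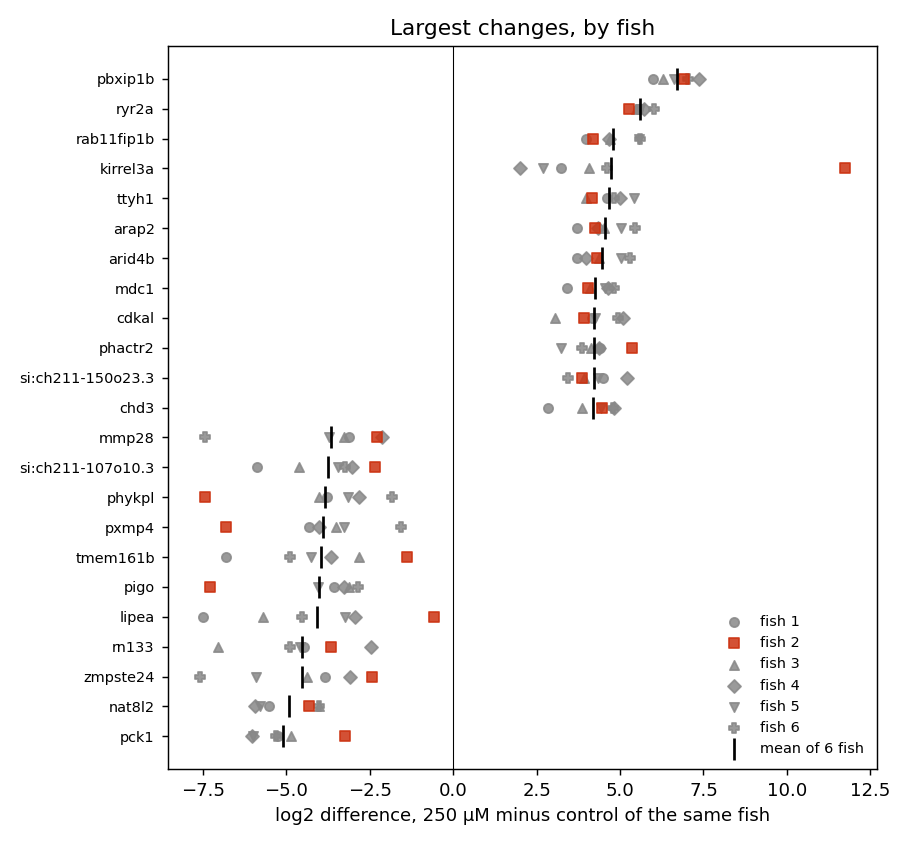
Log2 difference between 250 µM and the control of the same fish (x axis) for the 12 largest rises and 11 of the 12 largest falls, with 1 symbol per fish, fish 2 in red squares and the mean as a bar. All points lie on 1 side of 0 for each gene, which the rule that chose these genes required. The points of kirrel3a in fish 2 and of the falls with a library at 0 reads spread most.

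The labelled cell type was visible in its markers, which were high in both groups and mostly lower at 250 µM. Of 16 hepatocyte marker genes, 3 were called higher (18.8%) and 13 lower (81.2%), with a median of -1.18 (SD over fish 0.54) against -0.20 for all genes. Their summed level ran from 1224342 to 1616823 normalised reads in the controls and from 338068 to 1034061 at 250 µM, so the groups did not overlap. tfa, transferrin, fell by 2.03 ± 0.26, from 278221 ± 21855 to 69509 ± 16101, and apobb.1, an apolipoprotein B copy, fell by 2.07 ± 0.18, from 13331 ± 4480 to 3112 ± 749.5. The albumin gene alb2, named after its values were seen, fell by 1.47, from 289431 to 106236. The thyroid hormone carrier ttr and the retinol carrier rbp4 rose by 0.62 ± 0.17 each (adjusted p = 0.00431 and 0.00543). The rise of ttr was from 3341 ± 505 to 5505 ± 2363. In bulk RNA, fewer hepatocytes and less RNA per hepatocyte cannot be told apart.

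The same direction held for the most abundant transcripts, a set that overlaps the hepatocyte markers above. Both hold tfa, alb2, hpxa, hpxb, fetub, fgg, apoa1, apoa2 and plg, so their counts are not separate. Among the 50 genes with the highest mean in the arsenite controls, libraries of the same fish that this comparison does not use, 1 was called higher (2%) and 42 lower (84%) at 250 µM, with a median of -1.13. Without fish 1, 2, 3 or 6 none of the 50 was called higher; without fish 5, 2 were, and with library totals 5 were higher and 41 lower. The genes that were not called included the complement gene c9, at 0.35, and the stress gene nupr1b, at -0.28.

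Markers of other liver cells moved in no common direction. Of 3 macrophage and granulocyte markers, 2 were called lower, cd68 by -1.51 ± 0.16 and lyz by -1.73 ± 0.58, and mpeg1.1 was not called (0.23 ± 0.43). The summed level of the 3 fell outside the range of the controls (2537 to 3083) at 651 to 1607. That sum is almost all cd68, with a control mean of 2851.8 against 23.8 for lyz and 19.9 for mpeg1.1. Of the 3 endothelial markers, esamb rose by 0.57 ± 0.16, kdr fell by 2.28 ± 0.77 and stab1 was not called (0.62 ± 0.37). Their summed level was 198 to 244 in the controls and 264 to 331 at 250 µM. That sum is mostly esamb, with a control mean of 181.4 against 19.5 for stab1 and 17.8 for kdr. kdr was not called without fish 4 (-2.05, adjusted p = 0.0518) and fell under the filter on low values without any other fish. Of 2 stellate cell and fibroblast markers lratb.1 rose by 0.54 ± 0.17 and acta2 was not called (-0.62 ± 0.52). Their summed levels were 114 to 167 in the controls and 139 to 253 at 250 µM, mostly from lratb.1. In the controls the mean of lratb.1 was 122.1 against 17.9 for acta2. Of 2 erythrocyte markers rhag rose by 0.96 ± 0.16 and tfr1a fell by 0.79 ± 0.16, with summed levels of 2352 to 4017 and 1670 to 2532. These sums are mostly tfr1a, with a control mean of 2514.1 against 298.3 for rhag. Of 2 cholangiocyte markers jag1b, a Notch ligand, rose by 2.69 ± 0.24 and anxa4 fell by 0.43 ± 0.13. Their summed levels were 2561 to 3271 in the controls and 2112 to 2898 at 250 µM, mostly from anxa4. In the controls the mean of anxa4 was 2913.5 against 27.3 for jag1b. anxa4 was not called without fish 2 or with library totals. None of the lymphocyte and thrombocyte markers was measured (0 genes). lyz was not called without fish 3 or fish 4, or without the fish term (adjusted p = 0.0522). The part of other cell types in the results was not tested.

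**Figure D4:**
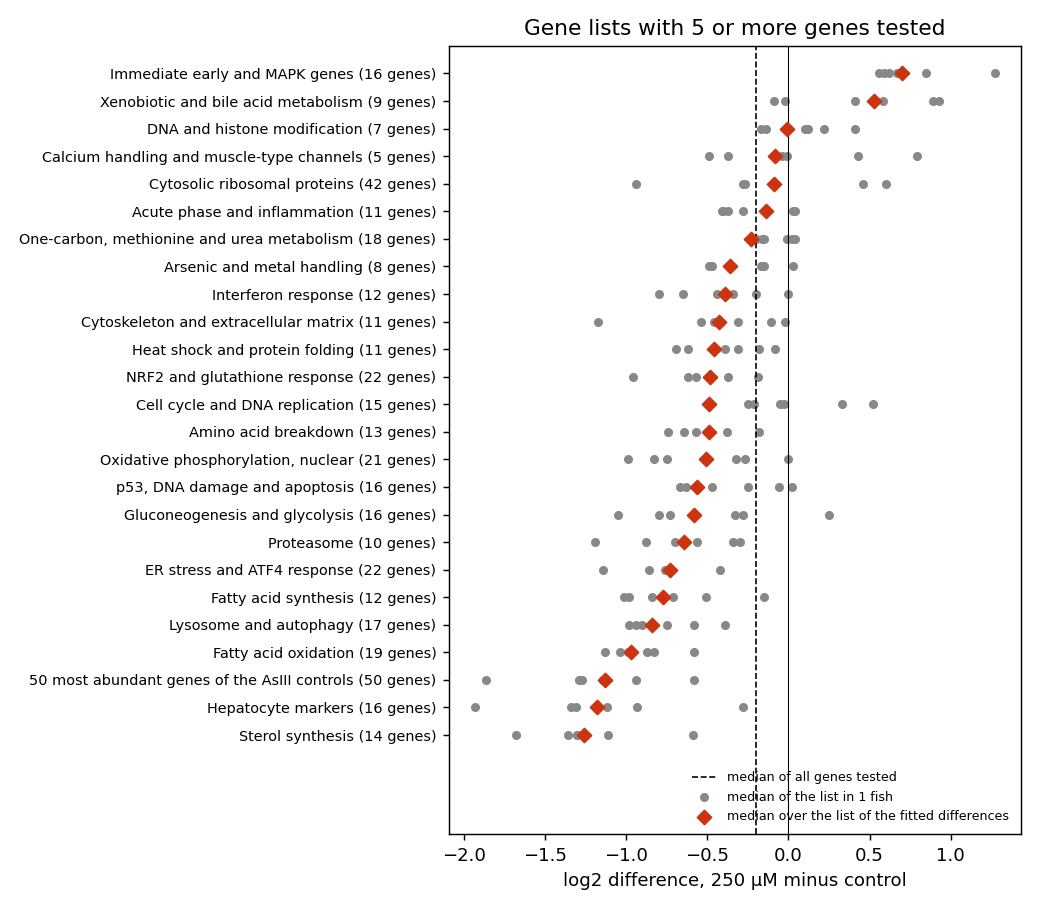
Median log2 difference between 250 µM and control (x axis) of each gene list with at least 5 genes tested: red diamonds are the median over the list of the fitted differences, grey points the list's median in each of 6 fish, and the dashed line the median of all genes at -0.20. Sterol synthesis (-1.26) and hepatocyte markers (-1.18) lie lowest among the lists of known function, and immediate early and MAPK genes (0.70) highest.

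The list of immediate early and MAPK signalling genes had the highest median among lists with at least 5 genes tested, 0.70 (SD over fish 0.27). Immediate early genes, many of them transcription factors, are switched on within minutes of a stimulus. The list also holds signalling enzymes: sgk1 (0.59) and dusp2 (0.80) were called higher and raf1b (-0.53) lower. Of 16 genes, 10 were called higher (62.5%) and 4 lower (25%), against 26.7% and 36.5% of all genes, and with library totals 11 were higher and 2 lower. ier2, an immediate early response gene, had 134 to 206 normalised reads in the controls (median 160) and 1864 to 3917 at 250 µM (median 2986). junb, a subunit of the AP-1 transcription factor, had 101 to 372.5 in the controls (median 228) and 2448 to 4105 at 250 µM (median 3449.9). All 6 libraries at 250 µM exceeded all controls in both genes, which rose by 4.18 ± 0.18 (adjusted p = 1.43e-10) and 3.95 ± 0.20 (adjusted p = 6.73e-10). jun and klf6a, named after their values were seen, rose by 2.71 and 2.35. The growth regulators myc (-1.56 ± 0.19) and mych (-1.30 ± 0.27) fell.

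Among 7 genes of DNA and histone modification, 3 were called higher and 3 lower, with a median of -0.01; with library totals 3 were higher, 1 lower and the median was 0.29, and with 1 fish left out the median ran from -0.10 to 0.09. tet3 and tet1, which oxidise methylated cytosine, rose by 2.31 ± 0.24 and 1.68 ± 0.35, tet3 from 47.8 ± 29.6 to 219 ± 41.7. The arginine methyltransferase prmt1 fell by 1.01 ± 0.18 and the lysine methyltransferase setd7 fell by 0.69 ± 0.17 (adjusted p = 0.00263), the latter not called with library totals. Of 5 calcium genes, ryr2a and the channel subunit cacna1da (1.63 ± 0.34) rose and the calmodulin copy calm1a fell by 0.99 ± 0.14; without fish 5 a further gene of the list was called lower. The list's median of -0.08 ran from -0.26 to 0.11 with 1 fish left out.

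In the list of gluconeogenesis and glycolysis, 4 of 16 tested genes were called higher (25%) and 8 lower (50%), against 26.7% and 36.5% of all genes, with a median of -0.58 (SD over fish 0.46); the medians of single fish ran from -1.05 to 0.25. Beside pck1, g6pc1a.1, glucose-6-phosphatase, which releases free glucose, had 849 to 1298 normalised reads in the controls (median 1161) and 154 to 379 at 250 µM (median 205). The groups did not overlap, and it fell by 2.28 ± 0.18 (adjusted p = 4.72e-08). The angiogenic factor vegfab and hif1a, the oxygen-sensitive transcription factor, rose by 1.4 ± 0.16 and 0.84 ± 0.19. The related copy hif1ab rose by 0.60 ± 0.15. All of them count among the genes called higher, but none is an enzyme of either pathway. The enolase eno1b, the remaining gene called higher, rose by 0.34 ± 0.14 (adjusted p = 0.0479). It was not called without fish 2 (adjusted p = 0.0952).

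Of 14 sterol synthesis genes, 13 were called lower (92.9%) and 1 higher (7.14%), against 36.5% and 26.7% of all genes, with a median of -1.26 (SD over fish 0.36). lss, lanosterol synthase, had 1873 to 2485 normalised reads in the controls (median 2328) and 367 to 677 at 250 µM (median 505). It fell by 2.16 ± 0.13 (adjusted p = 4.02e-09), with no overlap between the groups. The mevalonate pathway kinase pmvk fell by 2.25 ± 0.53, or was at -1.49 without fish 4. The member that rose was srebf2, the transcription factor that drives this pathway in mammals, by 0.72 ± 0.15, from 1571 ± 216 to 2680 ± 880.

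Fatty acid synthesis had 2 of 12 tested genes called higher (16.7%) and 6 lower (50%), against 26.7% and 36.5% of all genes, with a median of -0.77. The elongase elovl5, which extends polyunsaturated fatty acids, fell by 2.90 ± 0.18, from 1629 ± 387 to 228 ± 89.9, and the desaturase scdb fell by 2.02 ± 0.23, from 74097 ± 16213 to 20797 ± 11995. The phosphatidate phosphatase lpin1a rose by 2.48 ± 0.34 and the lipogenic factor thrsp by 0.46 ± 0.18, the latter not called without fish 1, 2, 3, 4 or 6, or without the fish term (adjusted p = 0.0865). Without fish 2, 4 or 6, 1 gene of the list was called higher. Of 19 fatty acid oxidation genes, 4 were called higher (21.1%) and 13 lower (68.4%), with a median of -0.97 (SD over fish 0.19). acadvl, the very long chain acyl-CoA dehydrogenase, had 240 to 314 normalised reads in the controls (median 284) and 18.2 to 75.3 at 250 µM (median 40.4). It fell by 2.79 ± 0.23 and acadsb, a short branched chain dehydrogenase, fell by 2.96 ± 0.74, the latter with 2 libraries at 250 µM without reads. acadsb was under 10 in every library at 250 µM, so it was tested only because it was high in the controls. It is among the 13 counted as lower. So is pex11a, at -2.20 ± 0.66, whose mean at 250 µM, 4.72 ± 3.75, also lay under the minimum value of 10. Like acadsb, pex11a was not tested without fish 2. The share of 68.4% is therefore partly a description. With 1 fish left out, 17 genes of the list were tested, with 3 to 5 called higher and 11 or 12 lower. The thiolases acaa1 and acaa2 rose by 1.59 ± 0.16 and 1.4 ± 0.32.

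Of 13 amino acid breakdown genes, 1 was called higher (7.69%) and 9 lower (69.2%), against 26.7% and 36.5% of all genes, with a median of -0.49. got1, the cytosolic aspartate aminotransferase, rose by 1.86 ± 0.16, from 223 ± 52.5 to 805 ± 127, and bckdha, of branched chain ketoacid breakdown, fell by 2.72 ± 0.29, from 545 ± 71.2 to 99.3 ± 56.6. gpt2, an alanine aminotransferase copy, fell by 2.85 ± 0.72 with 2 libraries at 250 µM without reads, or was at -3.48 without fish 6. With library totals the list had 3 genes higher and 5 lower. Of 18 genes of one-carbon, methionine and urea metabolism, 3 were called higher (16.7%) and 5 lower (27.8%), both smaller shares than over all genes, with a median of -0.23; with library totals 4 were higher and 2 lower, and the median was 0.07. The folate enzyme mthfd1b and the arginase arg2 rose by 1.20 ± 0.16 and 0.92 ± 0.18. The folate enzyme copy mthfd1l fell by 1.71 ± 0.63 and was not called without fish 1, 4, 5 or 6, or with library totals. Of 21 nuclear genes of oxidative phosphorylation, 1 was called higher (4.76%) and 11 lower (52.4%), with a median of -0.51 (SD over fish 0.39). The ATP synthase genes atp5a1 and atp5f1c differed by -1.64 ± 0.15 and -1.49 ± 0.14, both called lower, and ndufb3 rose by 0.43 ± 0.17, not called without fish 1, 2, 3 or 6, or without the fish term (adjusted p = 0.159). With library totals 3 genes of this list were higher and 9 lower.

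Of 22 genes of the NRF2 and glutathione response, 2 were called higher (9.09%) and 12 lower (54.5%), against 26.7% and 36.5% of all genes, with a median of -0.48 (SD over fish 0.26); with library totals the counts were 4 and 7 and the median -0.18. gclc, whose product joins glutamate and cysteine on the way to glutathione, had 769.5 to 1396 normalised reads in the controls (median 980) and 197 to 329.5 at 250 µM (median 254.5). The groups did not overlap, and it fell by 1.92 ± 0.16 (adjusted p = 7.66e-08). keap1a, the repressor of NRF2, fell by 1.67 ± 0.15, sqstm1, an autophagy receptor that binds KEAP1, fell by 1.73 ± 0.17, and gsr, glutathione reductase, fell by 1.14 ± 0.16. The thioredoxin copy txnb rose by 1.09 ± 0.24 and malic enzyme me1 by 0.78 ± 0.13.

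Arsenic and metal handling genes went in both directions. Of 8 genes, 2 were called higher (25%) and 3 lower (37.5%), close to the 26.7% and 36.5% of all genes, with a median of -0.36; with library totals 3 were higher and 2 lower and the median was -0.06. mt2, a metallothionein that binds metals through its cysteines, had 128 to 253.5 normalised reads in the controls (median 209.5) and 1107 to 2488 at 250 µM (median 1676). No library overlapped, and it rose by 3.09 ± 0.20 (adjusted p = 6.3e-09). abcc3, an exporter of conjugated organic anions, had 1.91 to 9.97 in the controls and 18.8 to 125 at 250 µM, a log2 difference of 2.79 ± 0.52 on 162 reads over the 6 libraries. All its controls lay under the minimum value of 10, so it was tested only because it was high at 250 µM, and without any 1 fish it was not tested. It is 1 of the 2 genes of the list counted as higher, so that share is a description. With 1 fish left out, 7 genes of the list were tested, with 1 called higher and 2 to 4 lower. The arsenic methyltransferase as3mt fell by 0.43 ± 0.14 (adjusted p = 0.0114), from 617 ± 42.5 to 460 ± 65.7; it was at -0.13 with library totals (adjusted p = 0.417) and was not called without fish 6 (adjusted p = 0.0514) or by edgeR (-0.34, adjusted p = 0.0562). gsto1, a glutathione transferase that reduces arsenicals, fell by 0.67 ± 0.18 with overlapping groups, 1184 to 1847 against 551 to 1730. The zinc exporter slc30a1a fell by 1.73 ± 0.15.

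Heat shock genes split between members. Of 11 genes, 4 were called higher (36.4%) and 6 lower (54.5%), against 26.7% and 36.5% of all genes, with a median of -0.46; with library totals 4 were higher and 4 lower and the median was -0.16. hs90a, an HSP90 copy, had 1138 to 2385 normalised reads in the controls (median 1643) and 3370.5 to 12522 at 250 µM (median 5173). hsp90ab1, the constitutive HSP90 copy, had 17426 to 20112 in the controls (median 18122) and 5076 to 9764 at 250 µM (median 6694). The groups did not overlap in either gene, and hs90a rose by 1.89 ± 0.20 while hsp90ab1 fell by 1.42 ± 0.16. The co-chaperone bag3 rose by 1.14 ± 0.21, with fish 6 at 520.0 in the control and 335 to 1057 in the group at 250 µM. The small heat shock protein gene hsp30 rose by 2.17 ± 0.36, higher in 6 of 6 fish although its control values ran from 1.10 to 535; without the fish term its adjusted p was 0.116. chordc1b, an HSP90-binding protein gene, fell by 3.00 ± 0.53, or was at -2.24 without fish 5.

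Of 22 tested genes of the ER stress and ATF4 response, 3 were called higher (13.6%) and 14 lower (63.6%), against 26.7% and 36.5% of all genes, with a median of -0.73 (SD over fish 0.23); without fish 6, 1 was higher and 14 lower, and with library totals 5 were higher and 11 lower. The chaperone canx fell by 1.98 ± 0.20, from 1267 ± 200.5 to 336 ± 110.5, and the co-chaperone dnajc3a fell by 1.77 ± 0.27. The stress transcription factor atf3 rose by 0.60 ± 0.17 and the amino acid carrier subunit slc3a2a by 0.43 ± 0.14, the latter not called without fish 6. ddit3, the ER stress transcription factor CHOP, was at 0.29 ± 0.18 (adjusted p = 0.168) and was called higher with library totals (0.59, adjusted p = 0.01). fam20a, a pseudokinase of the secretory pathway, fell by 1.97 ± 0.20, from 280.1 ± 90.2 to 74.1 ± 39.2. Of 10 proteasome genes, 3 were called higher (30%) and 6 lower (60%), with a median of -0.64; the core subunit psma4 rose by 1.30 ± 0.15 while another core subunit, psma5, fell by 1.68 ± 0.18. Of 17 lysosome and autophagy genes, 1 was called higher (5.88%) and 12 lower (70.6%), with a median of -0.84; with library totals 3 were higher and 10 lower. The cathepsin ctsz fell by 2.52 ± 0.22 and the autophagy receptor optn fell by 2.38 ± 0.19. The autophagy kinase ulk1a rose by 0.75 ± 0.25, not called without fish 1, 4 or 5.

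Of 16 genes of the p53 list, 3 were called higher (18.8%) and 5 lower (31.2%), against 26.7% and 36.5% of all genes, with a median of -0.56. Without fish 4, where 15 genes were tested, the median was -0.28. With library totals 5 were higher and 3 lower, and after thinning 3 were higher and 0 lower. sesn1, a stress-induced regulator of nutrient signalling, rose by 0.84 ± 0.16, from 1026 ± 260 to 1795 ± 223, and the apoptosis gene bbc3 by 1.24 ± 0.28. baxb fell by 1.34 ± 0.32 and tp53inp1 fell by 1.58 ± 0.60, the latter at -0.63 without fish 2 and not called with library totals (adjusted p = 0.0764) or without the fish term (adjusted p = 0.0971). The cell cycle inhibitor cdkn1a was at -0.77 ± 0.46 (adjusted p = 0.151). Of 15 cell cycle and replication genes, 5 were called higher (33.3%) and 3 lower (20%), with a median of -0.49, or -0.31 without fish 2. Without fish 4, where 12 genes were tested, the median was -0.03. The medians of single fish ran from -0.25 to 0.52, so the list's -0.49 lay below the median of every fish. With limma-voom the list's median was 0.20. The mitotic genes aurka and aspm rose by 2.40 ± 0.25 and 1.76 ± 0.29, aurka from 38.7 ± 6.91 to 217 ± 69.5. top2a, a topoisomerase, fell by 1.71 ± 0.55, or was at -0.93 without fish 2, and the replication helicase subunit mcm6 fell by 1.29 ± 0.19. Without fish 5 or fish 6, 2 genes of the list were called higher. rrm2, a subunit of ribonucleotide reductase, was at -0.66 ± 0.73 (adjusted p = 0.442), with 107 normalised reads in fish 6 and a median of 8.10 at 250 µM.

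Of 42 ribosomal protein genes, 11 were called higher (26.2%) and 12 lower (28.6%), against 26.7% and 36.5% of all genes, with a median of -0.09 (SD over fish 0.56) that ran from -0.21 to 0.06 with 1 fish left out; with library totals 16 were higher and 7 lower. rpl14 rose by 1.80 ± 0.16, from 1601 ± 66.3 to 5800.4 ± 1730.0, and rpl36a by 1.60 ± 0.16. rpl8 fell by 1.12 ± 0.17, from 7867 ± 571.5 to 3779 ± 1249, and rps12 fell by 1.02 ± 0.14. The medians of single fish ran from -0.94 to 0.60.

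Of 11 tested acute phase genes, 1 was called higher (9.09%) and 4 lower (36.4%), against 26.7% and 36.5% of all genes, with a median of -0.14. With 1 fish left out, 10 genes were tested and the median ran from -0.30 to -0.17. Without fish 5, 2 were higher. With library totals 12 genes were tested, 5 were higher, 4 lower and the median was 0.16. The complement gene c7b fell by 1.76 ± 0.14 and the NF-kB inhibitors tnfaip3 and nfkbiab were at -1.13 ± 0.18 and 0.56 ± 0.17, both called. Of 12 interferon response genes, 1 was called higher (8.33%) and 4 lower (33.3%), with a median of -0.39; without fish 5, or with library totals, 2 were lower. isg15 rose by 0.72 ± 0.14, while the antigen transporter tap1 and the RNA sensor rigi each fell by 1.21 (SE 0.24 and 0.21). After thinning, tap1 and rigi were not called (limma adjusted p = 0.059 and 0.0597), and the interferon list had 1 gene higher and 0 lower. Of 11 cytoskeleton and matrix genes, 2 were called higher (18.2%) and 4 lower (36.4%), with a median of -0.43, or -0.09 without fish 5 and -0.68 without fish 6; without fish 1, 2, 3, 4 or 6, 1 was higher. The myosin light chain myl9b rose by 1.69 ± 0.14, from 811 ± 119 to 2617 ± 273, and mmp9 by 1.19 ± 0.46, not called without fish 1, 2, 3, 4 or 6. The matrix protease mmp2 fell by 2.06 ± 0.27 and fibronectin fn1a fell by 1.97 ± 0.33. Of 9 xenobiotic and bile acid genes, 3 were called higher (33.3%) and 2 lower (22.2%), with a median of 0.53; without fish 2 or fish 3, or with library totals, 5 were higher. gstm.1, a glutathione transferase, rose by 1.44 ± 0.25 and tiparp, a target of the aryl hydrocarbon receptor, by 1.16 ± 0.15. The cytochrome P450 reductase porb fell by 1.16 ± 0.16 and the bile acid-induced repressor nr0b2 fell by 0.86 ± 0.21.

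Levels at the lower concentrations were set beside those at 250 µM for genes described above. Mean normalised reads of ryr2a were 13.3 ± 6.09 in the control, 14.2 at 5 µM, 16.1 at 10 µM, 15.7 ± 5.70 at 50 µM and 741 ± 446 at 250 µM (SD, n = 6). Those of pck1 were 1034 ± 286, 870, 1056, 993 ± 284 and 31.6 ± 19.1 in the same order. In both genes the means up to 50 µM lay within 1 SD of the control mean, and the mean at 250 µM lay outside the range of the control libraries. fam20a was higher than the control at the lower concentrations and lower at 250 µM, at 280.1 ± 90.2 in the control, 454 at 5 µM, 417 at 10 µM, 441 ± 90.0 at 50 µM and 74.1 ± 39.2 at 250 µM. No test was made between these concentrations.

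With the 50 µM libraries as the reference, which share no library with the control, limma called 4910 of 18773 genes higher (26.2%) and 6700 lower (35.7%) at 250 µM. The same libraries at 250 µM enter both comparisons, so their values are only set side by side. ryr2a differed by 5.33, ier2 by 4.2, junb by 3.56, pck1 by -5.05, mt2 by 2.75 and gclc by -1.75 from 50 µM, against 5.61, 4.18, 3.95, -5.11, 3.09 and -1.92 from the control.

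**Figure D5:**
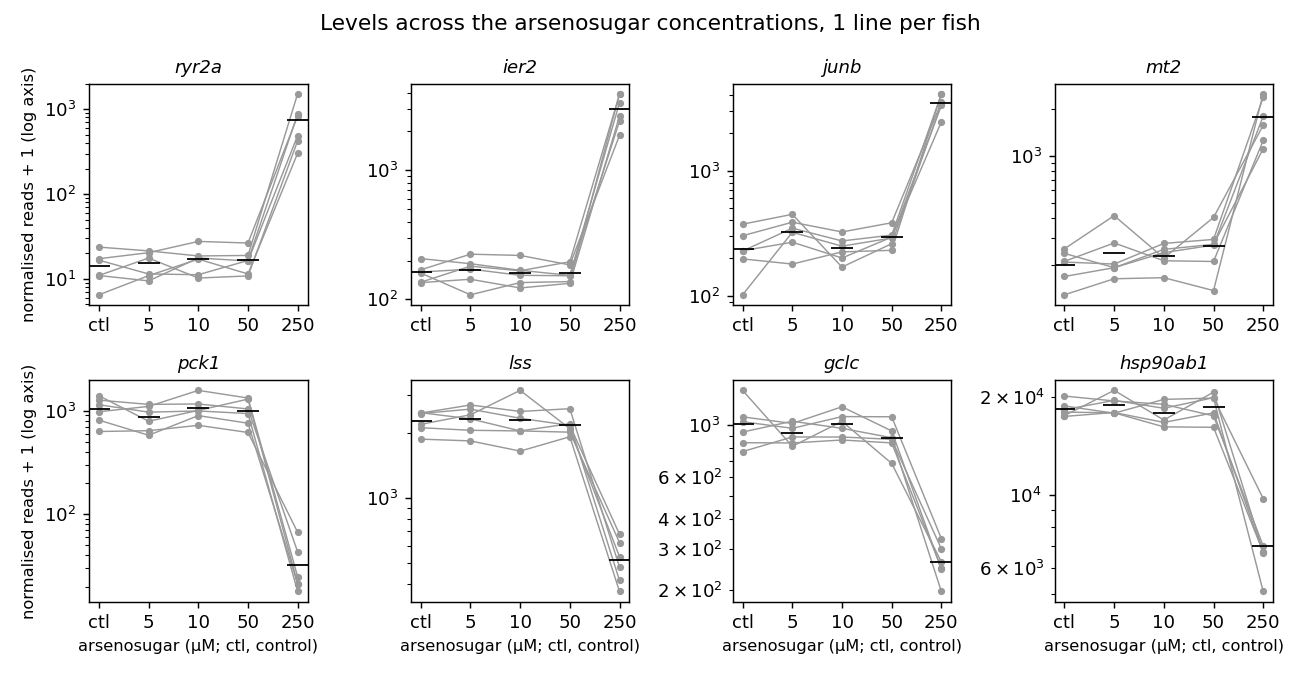
Normalised reads + 1 (y axes, log scale) in the control and at 5, 10, 50 and 250 µM arsenosugar (x axes, evenly spaced), with 1 grey line per fish and a black bar for the mean of 6 fish. In each of the 8 genes every fish shifted between 50 and 250 µM in the same direction as the others, upwards for ryr2a, ier2, junb and mt2 and downwards for pck1, lss, gclc and hsp90ab1.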

How the data were processed

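RNA of 54 hepatocyte libraries was measured by sequencing; 12 were compared here and 6 more, at 50 µM, served as another reference. HISAT2, featureCounts, Subread and DESeq2 1.40.2 are named in the submitters' processing notes; genome build, annotation and strandedness: not given in the sources used here. For 18901 genes the deposited values are a normalised read signal, the authors' gene counts after division by a size factor for each library. Whole reads were recovered for 100% of the values within 0.1 reads, and depth was taken from them. GeneIDs were matched to a RefSeq table of Ssal_v3.1 for names only: 18900 matched, 6224 with a symbol. Reads carry no molecular identifiers, so counts cover counting error only.

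A gene was tested where 6 or more of the 12 libraries reached a value of 10. limma 3.58.1 in R 4.3.3 was run on log2(value + 1) with moderated variances that follow a mean trend, two-sided, fish as a term, with Benjamini-Hochberg adjustment over all genes tested and a threshold of 0.05. A value of ± beside a log2 difference is the standard error of that fit. The titles give the fish, so the fish term follows the design; after removal of group means, same-fish libraries correlated with r from 0.0429 to 0.34 (median 0.0982), against a median of -0.0331 for other pairs. Alternatives used other scalings, pseudocounts, filters, edgeR 4.0.16, DESeq2 1.42.0 and limma-voom on the recovered reads, thinning to the shallowest library, no fish term, fish left out, the 3 fish with the deepest libraries at 250 µM, all 5 arsenosugar groups in 1 fit, and the arsenite controls as reference, the last chosen after seeing the data. The scripts were tested on simulated data.

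Genes named by rule were called, differed the same way in 6 of 6 fish, had a mean of at least 50 and carried a symbol: the 12 largest rises and 12 largest falls. In each of 30 gene lists the 2 largest called rises and the 2 largest called falls were added, with a fixed set of further genes, a few of which are not reported here; members were matched by symbol, allowing copy suffixes, which places rrm2b in the p53 and cell cycle lists. The same matching places catb, which may be a cathepsin B copy rather than catalase, in the NRF2 and glutathione list, where it was not called. Members and lists were chosen with earlier results of these data known. Lists are described by counts and medians, with no list test. The 12676 genes with a locus name only could not be matched by symbol, so counts cover only part of a pathway. For heat shock 26 symbols were listed and 11 genes measured, for arsenic and metal handling 22 and 8. The proteasome list had 31 symbols and 10 genes, and the ER stress list 29 and 23. Nothing in the sources used here says that libraries came from separate cultures beyond the fish. With the fish term, p-values therefore measure the spread over fish of the difference between groups, noise of each library included.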

Additional observations from a re-analysis of the deposited data

Results flagged for a closer look

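Among 82 groups of 6 values, for 41 genes, 7 held a value whose gap to the nearest other exceeded Dixon's critical share of the group's range, a criterion that chance meets in about 1 in 20 groups. At 250 µM, fish 2 stood apart in kirrel3a (10252 normalised reads), lipea (94.1) and tmem161b (37.7), fish 6 in rrm2 (107) and fish 1 in fam20a (151). In the controls, fish 6 stood apart in pxmp4 (72.4) and bag3 (520.0). The library of fish 2 at 250 µM was the shallowest, with 0.898 M reads, where 1 read was worth 9.41 normalised reads; its part in these values was not tested.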

How the results depend on the processing

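The counts of genes called higher and lower stayed within 1.5 times under all alternatives but 1: thinning every library to 897560 reads gave 5033 genes higher and 3254 lower against control and 3103 lower against 50 µM. Thinning also sets library totals equal (median of all genes 0.14), and library totals alone gave 4900 lower. Leaving out 1 fish at a time gave 4565 to 4949 genes higher and 6068 to 6422 lower against control. Without the replicate block for fish, 4895 genes were higher and 6609 lower against control (4970 and 6723 against 50 µM). In that setting 95.7% of the calls against control were kept in the same direction. The share kept was smaller with library totals (83.5%), with the 3 deepest fish (73.5%) and after thinning (64.7%). Of the 24 largest changes, all kept their call wherever they were tested. They were chosen from these same libraries as called and alike in 6 of 6 fish, so their kept calls are a description. With a fish left out the filter still asked for 6 libraries, so pbxip1b, ttyh1, abcc3 and acadsb were then not tested. Nor were phactr2 without fish 5 and rn133 without fish 4. The median of the cell cycle list, -0.49, turned to 0.64 with the filter at 50 and to 0.20 with limma-voom, and that of one-carbon metabolism, -0.23, to 0.07 with library totals and 0.02 after thinning; the cause was not tested. Of 125 named genes called, 100 kept their call in every alternative that tested them; the 3 deepest fish lost 17 and thinning lost 16. Matching list members by symbol alone was not run separately, since the reference table holds no descriptions and symbols were all that was matched. Genes under 10 reads numbered 138 to 374 in the controls and 1881 to 8378 at 250 µM.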

Other observations

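In the library of fish 2 at 250 µM, 6 genes with at least 20 reads exceeded 8 times the highest value of the other 11 libraries (after adding 5 to it), 2 of them with a symbol; 1 gene did so in fish 6 and none in the other 4 fish.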
